A study of Mus musculus with 6 samples.

Results

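The secreted proteases of the Adamts and Mmp families and their Timp inhibitors were followed in cells sorted from adult mouse hind-limb muscle. Members were taken by gene symbol alone: Adamts or Adamtsl with a number, Mmp with a number, or Timp1 to Timp4. This gave 51 of the 24062 genes of the deposited table of normalised counts, made up of 19 Adamts, 5 Adamtsl, 23 Mmp and 4 Timp genes. A second deposited table, of CPM (counts scaled to library size), held 29 of the 51 among its 4939 genes. All 51 symbols were matched in the GENCODE M21 annotation, 50 as protein-coding genes and Mmp1a as a polymorphic pseudogene.

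Mmp proteins are zinc-dependent proteases that cut collagens, elastin and other proteins of the extracellular matrix, and most are made as inactive precursors. Adamts proteases share a related catalytic domain joined to thrombospondin repeats that bind the matrix. They trim procollagens or cut large proteoglycans, while Adamts-like proteins keep the repeats and lack the protease domain. Timp proteins bind the active site of these enzymes. In skeletal muscle the connective tissue around fibres and at tendons is a main source of matrix and of its proteases, and leukocytes carry a set of Mmp enzymes of their own.

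The labelled cells of the Twist2 line (Tw2pos, 2 libraries) and its unlabelled cells (Tw2neg, 2 libraries) came from mice of genotype Tw2-CreERT2/+;R26-tdTO+. The labelled cells of the Pax7 line (Pax7pos, 1 library) and its unlabelled cells (Pax7neg, 1 library) came from Pax7-CreERT2/+;R26-tdTO+ mice. All were adult C57BL/6 mice given tamoxifen on alternate days, 3 times in all, 10 days before the muscle was taken, so every group carries a Cre allele, the tdTomato reporter and tamoxifen exposure. The label follows Cre made from the Twist2 or the Pax7 gene, which in muscle mark mesenchymal cells and satellite cells. The unlabelled groups are known from the sample titles, and no label says whether the 2 libraries of a group came from separate animals. The p-values therefore measure the spread between these libraries, which may be technical.

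Reads recovered from the normalised counts totalled 10902318 and 12425426 in Tw2pos and 13205751 and 13005707 in Tw2neg. The CPM table held 6016469 reads of Pax7pos and 7565797 of Pax7neg. Twist2 itself had 99.4 and 222 normalised counts in Tw2pos, against 22.0 and 23.2 in Tw2neg, and it was higher in Tw2pos (log2 fold change 2.67 ± 0.45 SE, limma adjusted p = 0.00706). Pax7 had 303 CPM in Pax7pos, against 0.402 CPM in Pax7neg. Summed over 10 fibroblast markers, the level was 1336605 and 1571770 normalised counts in Tw2pos and 365690 and 240273 in Tw2neg. Of these markers, Gsn, Col3a1 and Ly6a did not pass (limma adjusted p = 0.203, 0.0829 and 0.0609), with log2 fold changes of 2.15, 2.22 and 0.86. The other fibroblast markers were higher in Tw2pos. Gsn had the highest mean count of the list, so much of the sum comes from markers that did not pass. All 8 tendon cell markers were higher in Tw2pos. Tw2neg still held fibroblast transcripts, and its replicate 1 had 1.52 times the fibroblast sum and 2.27 times the tendon sum of replicate 2.

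In Tw2pos, 25 members were higher and 6 were lower than in Tw2neg, and 12 of the 43 tested did not pass (limma, Benjamini-Hochberg adjusted p under 0.05 over 14155 genes). Over all genes tested, 18.7% were higher and 20.0% were lower, so the share of members that were higher exceeded the background and the share that were lower did not. The median log2 fold change was 1.40 over the members, beside -0.04 over all genes. The rises were spread over all 4 families, with 11 of 18 tested Adamts, 5 of 5 Adamtsl, 6 of 16 Mmp and 3 of 4 Timp genes. The falls were Mmp8, Mmp9, Mmp12, Mmp13, Mmp25 and Timp4. None of the 18 Adamts or 5 Adamtsl genes was lower by limma, edgeR or DESeq2, and at an unadjusted p under 0.05 the number was also 0 for each tool. In RNA from bulk cells, fewer cells of a type and less RNA per cell cannot be told apart. Leaving out Tw2pos replicate 2 reduced the higher calls among the members and over all genes, and leaving out Tw2neg replicate 1 raised both. The median of the members was 1.32 and 1.76 in these fits, beside -0.05 and -0.04 over all genes. Of all genes, 2645 were higher and 2825 lower, and scaling by library totals gave 1607 and 5257, with 20 members higher and 8 lower.

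**Figure D1:**
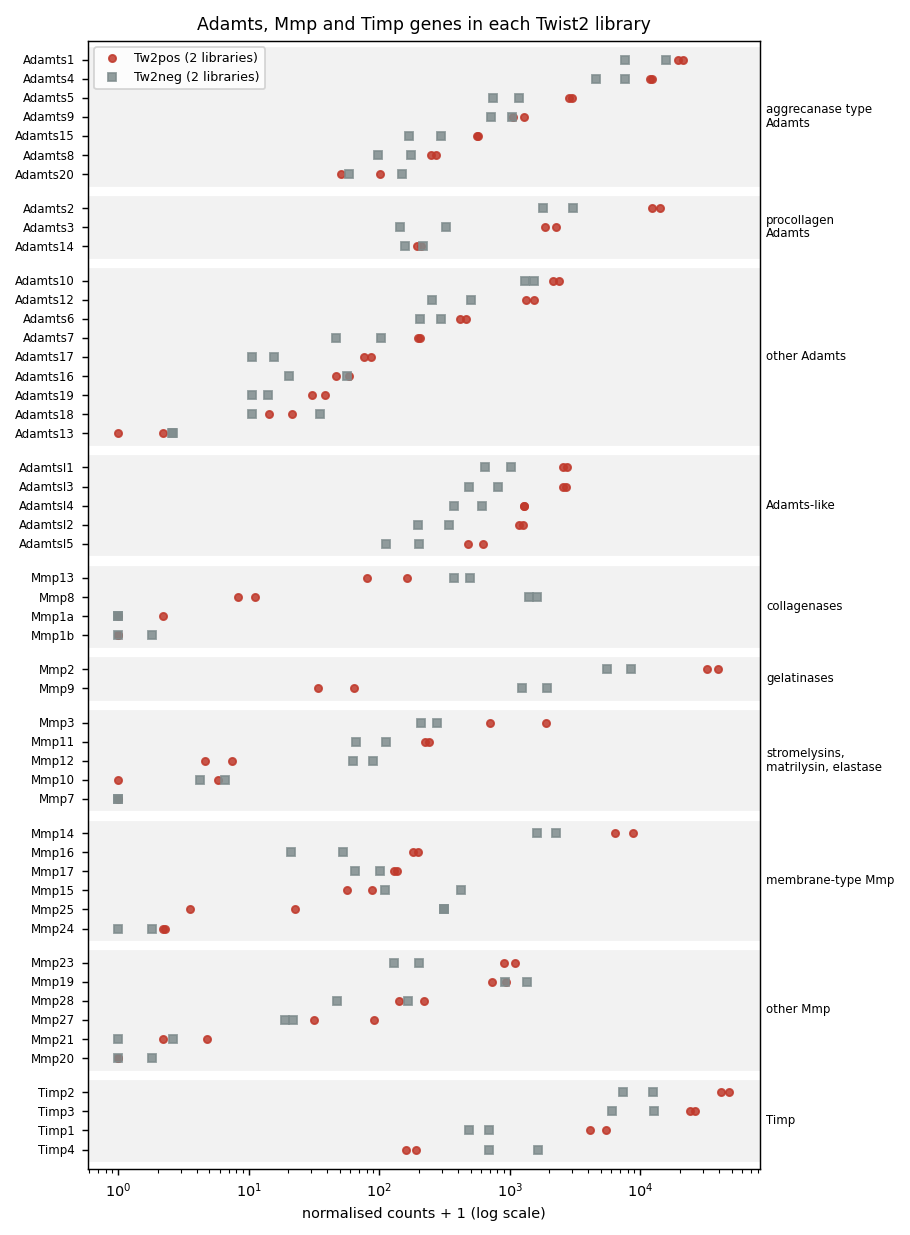
Normalised counts plus 1 (log scale) of all 51 members in each Twist2 library, grouped by role, with circles for the 2 Tw2pos libraries and squares for the 2 Tw2neg libraries. Most circles lie to the right of the squares, while Mmp8, Mmp9, Mmp12, Mmp13, Mmp25 and Timp4 lie to the left.

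The Timp inhibitors held both directions. Timp1 (chrX:20870166-20874735), a soluble inhibitor of many Mmp enzymes, had 4106 and 5404 normalised counts in Tw2pos, against 696 and 485 in Tw2neg. Both labelled libraries stood far above both unlabelled ones, 8.05-fold on the means, with a log2 difference of 3.02 ± 0.25 (SE, limma adjusted p = 9.15e-04). Timp2 (chr11:118301069-118355740), which inhibits Mmp2 and also takes part in its activation, had 41519 and 47791 normalised counts in Tw2pos and 12449 and 7301 in Tw2neg. The groups did not overlap and the log2 difference was 2.22 ± 0.40 (SE, limma adjusted p = 0.00914). Without Tw2pos replicate 2 it was 2.12 with an adjusted p of 0.0516. Timp3 (chr10:86300372-86349506), which is bound to the matrix and also inhibits Adamts4 and Adamts5, had 24175 and 25977 normalised counts in Tw2pos, against 12634 and 6090 in Tw2neg. Its groups were apart, but the Tw2neg libraries differed widely between themselves. The log2 fold change was 1.51 ± 0.42 (SE, limma adjusted p = 0.0344), with an adjusted p of 0.108 without Tw2pos replicate 1 and 0.150 without Tw2pos replicate 2. With quantile normalization it was 0.69 (adjusted p = 0.237), and without a filter the adjusted p was 0.0611.

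Timp4 (chr6:115241892-115252205), an inhibitor with a narrow tissue distribution that includes heart and fat, ran the other way. It had 190 and 159 normalised counts in Tw2pos, against 1642 and 687 in Tw2neg. Both labelled libraries were below both unlabelled ones, 6.67-fold on the means, with a log2 difference of -2.60 ± 0.41 (SE, limma adjusted p = 0.00580). Endothelial markers moved the same way: 7 of 8 were lower in Tw2pos, the eighth did not pass, and none was at 0 in both Tw2pos libraries. Their summed level was 7294 and 5155 normalised counts in Tw2pos, against 37346 and 13526 in Tw2neg. Of 5 Schwann cell markers, 4 were lower in Tw2pos, with sums of 881 and 529 normalised counts in Tw2pos, against 4262 and 2082 in Tw2neg. Timp4 and both sums were higher in replicate 1 than in replicate 2 of Tw2neg. So were 36 of the 43 tested members and the fibroblast, tendon, satellite cell, pericyte and neutrophil sums. The macrophage and lymphocyte sums were higher in replicate 2. Neutrophil, macrophage and lymphocyte sums were also lower in Tw2pos than in Tw2neg. The part of any of these cell types in the Timp4 value was not tested. Timp1, Timp3 and Timp4 each lie within a synapsin gene on the opposite strand (Syn1, Syn3 and Syn2), and 21.3% of the exon bases of Timp3 are shared with exons of Syn3. Timp4 shares 1.53% of its exon bases with exons of Syn2, and Timp1 shares 0 with those of Syn1. Mmp19 likewise shares 22.3% of its exon bases with Tmem198b on the opposite strand. The strand setting was not given in the sources used here, so reads from shared exon bases cannot be told apart.

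Among the proteases that remove the amino-terminal propeptide of procollagens, Adamts3 and Adamts2 were higher in Tw2pos and Adamts14 did not pass. Adamts3 (chr5:89677087-89883334), which acts on fibrillar procollagens and on the precursor of the lymphatic growth factor Vegfc, had 2263 and 1867 normalised counts in Tw2pos, against 322 and 143 in Tw2neg. The labelled libraries were 8.88-fold higher on the means, with no overlap (log2 fold change 3.25 ± 0.38 SE, limma adjusted p = 0.00253). Adamts2 (chr11:50602084-50807573), the main propeptidase of type I procollagen, had 12324 and 14193 normalised counts in Tw2pos and 3054 and 1809 in Tw2neg. The groups were again apart, with a log2 difference of 2.49 ± 0.31 (SE, limma adjusted p = 0.00291). Adamts14, the remaining procollagen member, had 208 and 192 normalised counts in Tw2pos, against 214 and 155 in Tw2neg. These values overlap, and the log2 fold change of 0.13 ± 0.25 did not pass (limma adjusted p = 0.705).

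Of the 7 Adamts genes whose products cut aggrecan or versican, Adamts4, Adamts5 and Adamts15 were higher in Tw2pos and the other 4 did not pass. Adamts5, a main aggrecanase of mouse cartilage, had 2983 and 2831 normalised counts in Tw2pos, against 1169 and 741 in Tw2neg (log2 fold change 1.64 ± 0.25 SE, limma adjusted p = 0.00553). Adamts4, a second aggrecanase, had 11812 and 12173 normalised counts in Tw2pos and 7564 and 4570 in Tw2neg. The Adamts4 groups did not overlap, but the difference was smaller, 1.03 ± 0.32 on the log2 scale (SE, limma adjusted p = 0.0468), and the adjusted p was 0.184 without Tw2pos replicate 1, 0.221 without Tw2pos replicate 2 and 0.0559 without Tw2neg replicate 2, while the call held without Tw2neg replicate 1. The Adamts4 value was 0.42 with quantile normalization (adjusted p = 0.328) and 0.58 with library totals (adjusted p = 0.136), and the call was also lost with edgeR (adjusted p = 0.0580), without a filter (0.0730) and without a variance trend (0.0611). Adamts15, a versicanase, had 562 and 572 normalised counts in Tw2pos, against 298 and 167 in Tw2neg (log2 fold change 1.34 ± 0.30 SE, limma adjusted p = 0.0179). Without Tw2pos replicate 1 or replicate 2 its adjusted p was 0.0628 or 0.0756. Adamts1, which cuts versican and has the highest level per length of all Adamts genes in Tw2pos, had 21368 and 19507 normalised counts in Tw2pos and 15788 and 7622 in Tw2neg. Its groups did not overlap, yet the log2 fold change of 0.90 ± 0.42 did not pass (limma adjusted p = 0.141). Without Tw2neg replicate 1 the value was 1.42 with an adjusted p of 0.0134. Adamts8, Adamts9 and Adamts20 also did not pass, with log2 fold changes of 0.98, 0.42 and -0.40. Adamts8 was higher with DESeq2 (adjusted p = 0.0490), quantile normalization (0.0321), the replicate block (0.00902) and without Tw2neg replicate 1 (0.00749), and Adamts9 was higher in the last of these fits (0.69, adjusted p = 0.0292).

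The remaining Adamts genes were mostly higher. Adamts12, which can cut the cartilage and tendon protein Comp, had 1535 and 1339 normalised counts in Tw2pos, against 502 and 254 in Tw2neg (log2 fold change 2.0 ± 0.33 SE, limma adjusted p = 0.00691). Adamts17, whose human counterpart is mutated in a syndrome of short stature and lens dislocation, had 85.4 and 74.8 normalised counts in Tw2pos and 14.6 and 9.59 in Tw2neg. The labelled libraries stood well above the unlabelled ones at this low level (log2 fold change 2.65 ± 0.39 SE, limma adjusted p = 0.00482). Adamts10 (chr17:33524204-33553782), which binds fibrillin-1, had 2146 and 2366 normalised counts in Tw2pos, against 1540 and 1313 in Tw2neg. Its rise was the smallest among the members that passed, 0.66 ± 0.19 on the log2 scale (SE, limma adjusted p = 0.0352), and the adjusted p was 0.189 without Tw2pos replicate 1 and 0.295 without Tw2pos replicate 2. With library totals the Adamts10 value was 0.21 (adjusted p = 0.373), and the call was also lost with quantile normalization (adjusted p = 0.0514) and without a variance trend (0.0724). Adamts6, Adamts7 and Adamts19 were higher with log2 fold changes of 0.82, 1.54 and 1.49 (limma adjusted p = 0.0424, 0.0307 and 0.0398). Each of these 3 calls was lost when either Tw2pos library was left out, with adjusted p between 0.106 and 0.250, and Adamts19 also without Tw2neg replicate 2 (adjusted p = 0.0773). With library totals all 3 were lost, with values of 0.38 for Adamts6, 1.09 for Adamts7 and 1.06 for Adamts19, and without a filter the adjusted p was between 0.0560 and 0.0647. Adamts6 and Adamts7 were also lost without a variance trend (adjusted p = 0.0733 and 0.0506) and Adamts19 with DESeq2 (0.0808). Adamts16 and Adamts18 did not pass, although Adamts16 was higher without Tw2neg replicate 1 (1.37, adjusted p = 0.0360), and Adamts13, the protease of von Willebrand factor, had 5 reads over the 4 libraries and was not tested.

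All 5 Adamts-like genes were higher in Tw2pos, and each call held under all 14 alternative settings. Adamtsl2, which binds fibrillin and a latent TGF-beta binding protein, had 1251 and 1174 normalised counts in Tw2pos, against 342 and 197 in Tw2neg. It had the largest change of the 5, 2.22 ± 0.29 on the log2 scale (SE, limma adjusted p = 0.00326). Adamtsl1 had 2749 and 2569 normalised counts in Tw2pos and 1023 and 646 in Tw2neg (log2 fold change 1.71 ± 0.25 SE, limma adjusted p = 0.00491). Adamtsl3 and Adamtsl5 had log2 fold changes of 2.06 and 1.85. Adamtsl4, linked in humans to displaced lenses, had 1.42. In all 5 genes both labelled libraries were above both unlabelled ones.

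**Figure D2:**
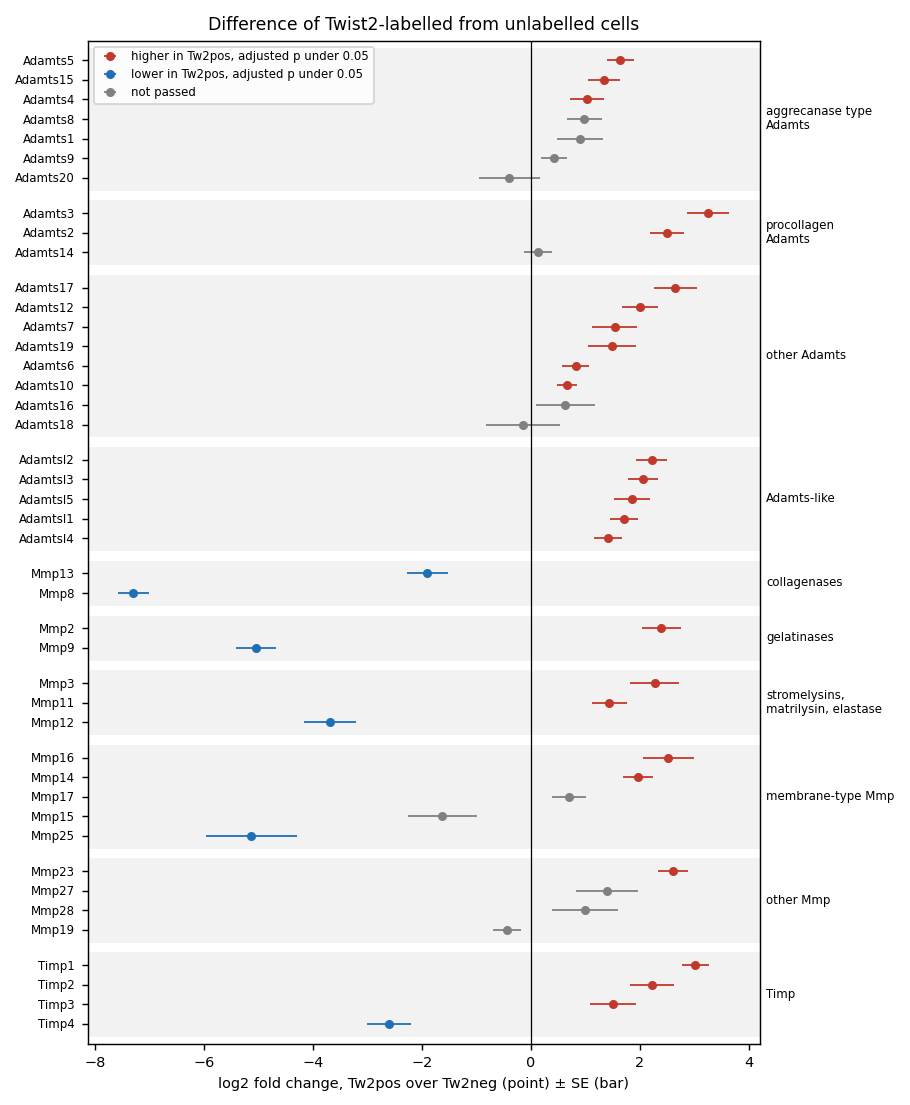
Log2 fold change of Tw2pos over Tw2neg (points, limma) with its SE (bars) for the 43 tested members, grouped by role; red and blue mark genes that were higher or lower in Tw2pos at an adjusted p under 0.05, and grey those that did not pass. The Adamts and Adamtsl points that passed all lie above 0, and the Mmp genes run from Mmp8 at -7.29 to Mmp23 at 2.61.

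The 2 gelatinases moved in opposite directions. Mmp2 (chr8:92827291-92853420), a gelatinase of connective tissue cells, had 32426 and 39561 normalised counts in Tw2pos, against 8512 and 5500 in Tw2neg. Both labelled libraries were above both unlabelled ones, 5.14-fold on the means (log2 fold change 2.39 ± 0.36 SE, limma adjusted p = 0.00497). Mmp9 (chr2:164940780-164955850), the gelatinase stored in neutrophil granules and also made by macrophages, had 33.1 and 62.7 normalised counts in Tw2pos, against 1918 and 1234 in Tw2neg. It was 32.9-fold higher in Tw2neg on the means (log2 fold change -5.04 ± 0.37 SE, limma adjusted p = 6.24e-04).

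The membrane-type enzymes divided in the same way. Mmp14 (chr14:54431612-54445364), which sits in the cell membrane and activates the Mmp2 precursor, had 6349 and 8782 normalised counts in Tw2pos and 2267 and 1614 in Tw2neg (log2 fold change 1.96 ± 0.27 SE, limma adjusted p = 0.00399). Mmp16, a relative of Mmp14, had 198 and 180 normalised counts in Tw2pos, against 51.2 and 20.0 in Tw2neg (log2 fold change 2.52 ± 0.47 SE, limma adjusted p = 0.010). Mmp25 (chr17:23628311-23645277), a lipid-anchored enzyme of leukocytes, had 2.55 and 21.7 normalised counts in Tw2pos, against 312 and 314 in Tw2neg. The Tw2pos libraries rest on 2 and 18 reads and differ widely, but both are far below Tw2neg (log2 fold change -5.13 ± 0.83 SE, limma adjusted p = 0.00643). Mmp15 and Mmp17 did not pass, with log2 fold changes of -1.62 and 0.71. Mmp15 was lower with DESeq2 (-1.90, adjusted p = 0.00342), with library totals (-2.07, adjusted p = 0.0252), with the replicate block (adjusted p = 3.36e-04) and without Tw2neg replicate 2 (-2.60, adjusted p = 0.00572). Mmp17 was higher with quantile normalization (0.99, adjusted p = 0.0435) and without Tw2neg replicate 1 (1.03, adjusted p = 0.0278). Among the other Mmp genes, Mmp23, a short membrane-tethered enzyme, had 900 and 1090 normalised counts in Tw2pos and 202 and 130 in Tw2neg. That difference of 2.61 ± 0.27 on the log2 scale was the largest rise of the Mmp family (SE, limma adjusted p = 0.00174). Mmp11, stromelysin-3, was higher by 1.43 ± 0.32 (SE, limma adjusted p = 0.0180), with adjusted p of 0.0963 and 0.0875 without Tw2pos replicate 1 and replicate 2. Mmp19, Mmp27 and Mmp28 did not pass. Without Tw2neg replicate 1, Mmp19 was lower (-0.72, adjusted p = 0.0354) and Mmp28 was higher (1.89, adjusted p = 0.0156). Mmp19 was also lower with library totals (-0.89, adjusted p = 0.0235) and Mmp28 higher with the replicate block (adjusted p = 0.0181). Mmp27 was higher with DESeq2 (1.65, adjusted p = 0.0394), with the replicate block (adjusted p = 0.0165) and without Tw2pos replicate 1 (2.15, adjusted p = 0.0380).

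A set of 10 members forms 1 cluster on chromosome 9 (chr9:7272514-7699585, GRCm38), in the order Mmp13, Mmp12, Mmp1b, Mmp3, Mmp1a, Mmp10, Mmp8, Mmp27, Mmp20 and Mmp7 over 427 kb. Neighbours in this cluster went in opposite directions. Mmp3, stromelysin-1, which cuts many matrix proteins and activates other Mmp precursors, had 706 and 1881 normalised counts in Tw2pos, against 208 and 273 in Tw2neg (log2 fold change 2.27 ± 0.46 SE, limma adjusted p = 0.0128). Its labelled libraries differed from each other but both exceeded the unlabelled ones. Mmp8, the collagenase of neutrophils, had 10.2 and 7.24 normalised counts in Tw2pos and 1613 and 1406 in Tw2neg. This was the largest difference of any member, 173-fold higher in Tw2neg on the means (log2 fold change -7.29 ± 0.28 SE, limma adjusted p = 3.57e-04). Mmp12, the elastase of macrophages, had 6.37 and 3.62 normalised counts in Tw2pos, or 5 and 3 reads, against 61.8 and 88.8 in Tw2neg (log2 fold change -3.69 ± 0.47 SE, limma adjusted p = 0.00318). Mmp13, a collagenase of cartilage, bone and activated stroma, had 163 and 79.6 normalised counts in Tw2pos and 372 and 494 in Tw2neg. Its groups did not overlap, with a log2 difference of -1.90 ± 0.38 (SE, limma adjusted p = 0.0123). Mmp27 had 30.6 and 89.3 normalised counts in Tw2pos, against 17.9 and 20.8 in Tw2neg, and did not pass (limma adjusted p = 0.0974). Mmp1a, Mmp1b, Mmp10, Mmp20 and Mmp7 were below the filter of a mean of 10, with 1, 1, 15, 1 and 0 reads over the 4 libraries. For Mmp7, 0 reads in a library allows up to 3. Mmp21 and Mmp24, which lie elsewhere, had 6 and 3 reads.

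**Figure D3:**
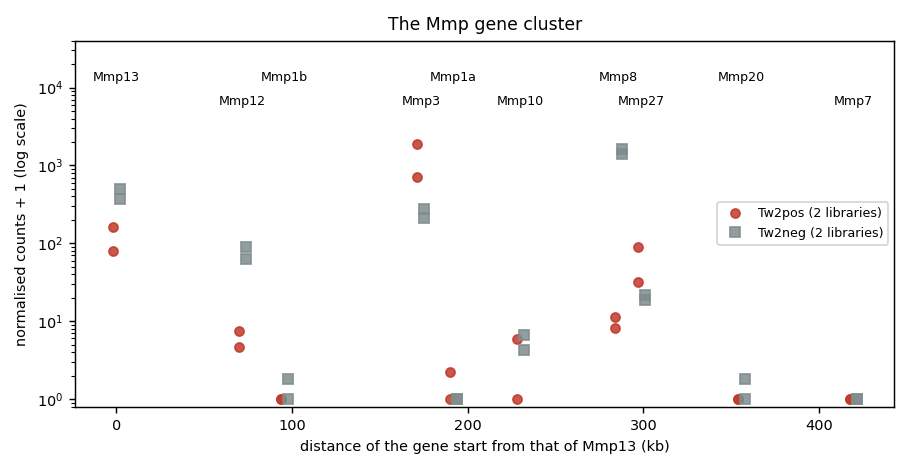
Normalised counts plus 1 (log scale) of the 10 clustered Mmp genes in each Twist2 library, against the distance of each gene start from that of Mmp13 in kb. Mmp3, at 173 kb, lies higher in Tw2pos (circles), while Mmp13, Mmp12 and Mmp8, at 0, 71.9 and 286 kb, lie higher in Tw2neg (squares).

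The sequences before the starts of the 4 tested and called genes of this cluster are shown because these neighbours differ in direction. They are 250 bases each from RefSeq on GRCm38.p6, all on the plus strand: Mmp3 at chr9:7445572-7445821, Mmp13 at chr9:7272264-7272513, Mmp12 at chr9:7347124-7347373, which is the second of its 2 windows, and Mmp8 at chr9:7558179-7558428. Capitals mark matches, searched on both strands, to TGANTCA, the motif of the AP-1 factors, and to TATAAA, the TATA motif.
Mmp3: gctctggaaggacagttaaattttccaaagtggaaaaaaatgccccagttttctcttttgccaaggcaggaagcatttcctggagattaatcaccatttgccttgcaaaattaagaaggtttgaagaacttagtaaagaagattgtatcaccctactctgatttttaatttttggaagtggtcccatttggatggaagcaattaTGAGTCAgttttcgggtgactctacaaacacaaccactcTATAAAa
Mmp13: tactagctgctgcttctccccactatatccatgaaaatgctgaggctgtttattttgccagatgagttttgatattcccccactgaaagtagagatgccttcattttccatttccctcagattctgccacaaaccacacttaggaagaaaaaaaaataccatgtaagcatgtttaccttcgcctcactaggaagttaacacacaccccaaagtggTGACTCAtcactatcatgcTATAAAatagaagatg
Mmp12: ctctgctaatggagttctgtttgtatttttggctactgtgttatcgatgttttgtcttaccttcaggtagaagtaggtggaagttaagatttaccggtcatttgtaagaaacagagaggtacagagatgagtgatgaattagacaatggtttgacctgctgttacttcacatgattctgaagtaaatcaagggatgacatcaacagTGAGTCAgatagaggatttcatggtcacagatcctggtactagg
Mmp8: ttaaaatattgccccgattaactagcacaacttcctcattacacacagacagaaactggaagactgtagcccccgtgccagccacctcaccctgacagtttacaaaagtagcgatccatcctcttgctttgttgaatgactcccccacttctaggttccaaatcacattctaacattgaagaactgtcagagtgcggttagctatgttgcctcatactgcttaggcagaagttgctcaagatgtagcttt
The AP-1 match began at position -46 in Mmp3, -35 in Mmp13 and -44 in Mmp12, counted from the start to which each window belongs, and the printed window of Mmp8 held neither motif. Of the 36 members with a RefSeq window, 8 held TGANTCA, or 22.2%, and all 8 belong to the chromosome 9 cluster, where every member has a window. Over all 27025 genes with a window the share was 7.82%. TATAAA was found in 10 of the 36 members, or 27.8%, 7 of them in the cluster, against 14.3% of all genes. The first Mmp12 window (chr9:7344147-7344396), which covers the gene start used for the distances above, held neither motif. In the printed windows the AP-1 letters stand before Mmp3, which was higher in Tw2pos, and before Mmp12 and Mmp13, which were lower. A match describes the letters and not the binding of a factor.

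The leukocyte markers moved together with the Mmp genes that were lower in Tw2pos. All 10 neutrophil markers were lower in Tw2pos, none was at 0 in both Tw2pos libraries, and their summed level was 572 and 380 normalised counts in Tw2pos, against 78088 and 70893 in Tw2neg. All 9 measured macrophage and monocyte markers were lower as well, with sums of 2557 and 3460 normalised counts in Tw2pos and 35083 and 38794 in Tw2neg. All 8 lymphocyte markers were lower too, with sums of 85.4 and 140 normalised counts in Tw2pos and 6645 and 14551 in Tw2neg. The neutrophil, macrophage and lymphocyte sums were 156-fold, 12.3-fold and 94.1-fold higher in Tw2neg. The folds were 173 for Mmp8, 32.9 for Mmp9, 25.8 for Mmp25, 15.1 for Mmp12 and 3.57 for Mmp13. The cartilage genes Col2a1 and Acan were also lower in Tw2pos, with log2 fold changes of -3.04 and -2.95, beside -1.90 for Mmp13. The part of leukocytes and of cartilage cells in the Mmp values was not tested. The members that were higher in Tw2pos moved with the fibroblast and tendon sums given above, and the part of those cells was not tested either.

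Per kilobase of exon, the members with the highest level in Tw2pos were Timp2 at 11462 and Mmp2 at 10677 normalised counts per kb, followed by Timp1 at 5355, Adamts1 at 3855 and Timp3 at 3079. In Tw2neg the order was Timp2 at 2535, Adamts1 at 2208 and Mmp2 at 2078 normalised counts per kb, and Mmp8 and Mmp9 ranked 7 and 8, against 39 and 34 in Tw2pos. The summed Mmp level was 11960 and 15249 normalised counts per kb in Tw2pos, of which Mmp2 made up 80.4% and 77.0%. In Tw2neg the sum was 4974 and 3758 per kb and the share of Mmp2 was 50.8% and 43.4%. Without Mmp2, the Mmp sum was 2341 and 3514 normalised counts per kb in Tw2pos, against 2449 and 2127 in Tw2neg, and these groups overlapped. The Timp sum was 18282 and 21570 normalised counts per kb in Tw2pos and 5809 and 3285 in Tw2neg. The ratio of the Timp sum to the Mmp sum was thus 1.53 and 1.41 in Tw2pos, against 1.17 and 0.874 in Tw2neg, a description of transcripts that was not tested.

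The 2 Tw2neg libraries differed in these genes more than in genes at large. Of the 43 tested members, 36 were higher in replicate 1 of Tw2neg, with a median log2 difference of 0.70, whereas 49.6% of all 14155 genes were higher there and their median was -0.01. In Tw2pos, 23 of the 43 were higher in replicate 1. The 7 members that were higher in replicate 2 of Tw2neg were Mmp3, Mmp12, Mmp13, Mmp19, Mmp25, Mmp27 and Adamts6. Endothelial and tendon marker sums were 2.76 and 2.27 times as high in replicate 1 of Tw2neg as in replicate 2, beside 1.10 for neutrophils and 0.904 for macrophages. The part of these cells in the shift was not tested.

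Other proteases and regulators of the matrix, taken from lists of known families, moved along similar lines. Of 10 tested Adam proteases, which shed proteins from cell membranes, 5 were higher in Tw2pos, led by Adam33 at 1.96. Adam15 had the highest mean count, not adjusted for gene length, at 2217 beside 2196 for Adam9, and did not pass (-0.10). Adam8, an enzyme of leukocytes, was lower, with 54.8 and 95.3 normalised counts in Tw2pos, against 2614 and 3427 in Tw2neg. Among the astacin proteases and their enhancers, 4 of 5 were higher, led by Tll2 at 2.99. Pcolce, which speeds removal of the carboxy-terminal procollagen propeptide, had 19116 and 19259 normalised counts in Tw2pos, against 4538 and 2599 in Tw2neg (log2 fold change 2.48 ± 0.33 SE, limma adjusted p = 0.00353). In the plasminogen system, 4 of 5 tested genes were higher, and the receptor Plaur was lower, with a log2 fold change of -2.07. Reck, a membrane-anchored inhibitor of Mmp enzymes, was higher by 2.01 ± 0.31 (SE, limma adjusted p = 0.00544) and Pcsk5, a convertase of precursors, by 2.86, in a list of 8 inhibitors and activators with 4 higher and Furin lower (-0.88). The highest mean count in that list was that of Bsg, which was higher by 0.89. Among 11 other matrix and lysosomal proteases, 6 were higher, led by Ctsk, the collagen-degrading cathepsin, at 2.51. Ctsb, the list member with the highest mean count, did not pass (0.64). The 4 that were lower were Ctss, Ctsg, Elane and Prtn3, of which the last 3 are proteases of neutrophil granules and Elane is also among the neutrophil markers.

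The substrates of these enzymes were measured in the same libraries. Of 17 tested substrate genes, 11 were higher and 2 were lower in Tw2pos. Fbn2, a fibrillin, had the largest rise, 3.61 ± 0.35 on the log2 scale (SE, limma adjusted p = 0.00143). Col1a2, the substrate with the highest mean count, did not pass (2.75, limma adjusted p = 0.0628). Vcan, the versican core protein, had 4938 and 5328 normalised counts in Tw2pos, against 2027 and 1498 in Tw2neg. The falls were the cartilage genes Col2a1 and Acan, which encodes the aggrecan core protein, with log2 fold changes of -3.04 and -2.95. Acan had 240 and 203 normalised counts in Tw2pos, against 2394 and 1214 in Tw2neg, so the aggrecanase genes Adamts4 and Adamts5 and this substrate differed in opposite directions.

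The comparison of Tw2pos with Pax7pos set the label of the Twist2 line against that of satellite cells. In the authors' deposited table, each gene has a log2 fold change of at least 1.0005 in size against Tw2neg in 1 group or more. A level of 10 CPM or above in no fewer than 3 libraries also holds for every gene, so its genes were chosen for differences between these groups. In Tw2pos, 20 of 27 tested members were higher and 1 was lower than in Pax7pos, where 33.9% and 25.7% of the 4790 genes of that fit were higher and lower (limma adjusted p under 0.05). The median log2 fold change was 2.68 over the members and 0.41 over all genes. Quantile normalization moved the median of all genes to -0.16, with 852 genes higher and 995 lower in place of 1624 and 1229, and with 16 members higher and 2 lower. All 10 fibroblast and 8 tendon markers were higher in Tw2pos as well, with 6 of 7 pericyte, 5 of 8 endothelial and 6 of 9 macrophage markers. The fibroblast sum was 107964 and 126987 CPM in Tw2pos, against 6201 CPM in Pax7pos, and the part of these cells was not tested. The lone Pax7pos library is assumed to vary like the Twist2 libraries. All 4 Timp genes and all 5 Adamtsl genes were higher in Tw2pos, with 6 of 9 Adamts and 5 of 9 Mmp genes.

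Timp2 had 3354 and 3861 CPM in Tw2pos, against 366 CPM in Pax7pos (log2 fold change 3.30, limma adjusted p = 0.00101). Timp3 had 1953 and 2099 CPM in Tw2pos and 500 CPM in Pax7pos (log2 fold change 2.02, limma adjusted p = 0.0103). Timp1 had 332 and 437 CPM in Tw2pos and 134 CPM in Pax7pos, a log2 fold change of 1.5 (limma adjusted p = 0.00929) that had an adjusted p of 0.0694 without Tw2pos replicate 2. These 3 inhibitors were thus lower in Pax7pos but well above its lowest counts. Timp4 was at 15.3 and 12.9 CPM in Tw2pos and 1.36 CPM, or 13 reads, in Pax7pos, and its call was lost under quantile normalization (adjusted p = 0.205) and with a pseudocount of 10 (adjusted p = 0.0745).

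Several proteases had few reads in Pax7pos. Mmp13 had 13.2 and 6.43 CPM in Tw2pos, against 1 read in Pax7pos, or 0.104 CPM with a 95% exact Poisson interval of 0.00264 to 0.582 CPM, which covers counting error only. Mmp23 had 72.7 and 88.1 CPM in Tw2pos and 0.522 CPM, from 5 reads, in Pax7pos. Mmp3 had 57.1 and 152 CPM in Tw2pos, against 0.731 CPM in Pax7pos. All 3 were higher in Tw2pos by limma (adjusted p = 0.00148, 4.06e-05 and 1.61e-04). Adamtsl3, whose product is a matrix protein without protease domain, had 217 and 205 CPM in Tw2pos and 2.61 CPM in Pax7pos, with a log2 fold change of 5.88 (limma adjusted p = 3.67e-05). Adamtsl2 differed by 5.46, Adamts3 by 5.34 and Adamts2 by 4.94 on the log2 scale. Mmp2 had 2619 and 3196 CPM in Tw2pos, against 431 CPM in Pax7pos, lower but far from 0 in Pax7pos (log2 fold change 2.74, limma adjusted p = 0.00175). Mmp14 had 513 and 709 CPM in Tw2pos and 194 CPM in Pax7pos (log2 fold change 1.63, limma adjusted p = 0.00817), with an adjusted p of 0.0521 without Tw2pos replicate 2. Adamts6 was at 1.5 in place of 2.72 under quantile normalization (adjusted p = 0.0501). Quantile normalization also gave 0.83 for Adamts15 (adjusted p = 0.176) and 1.0 for Adamtsl4 (adjusted p = 0.0882), and edgeR 0.96 for Adamtsl4 (adjusted p = 0.0642). Adamts15 and Adamtsl4 lost their calls when either Tw2pos library was left out (adjusted p between 0.110 and 0.117).

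Adamts10 was the exception in Pax7pos. It had 173 and 191 CPM in Tw2pos, against 538 CPM in Pax7pos, and was lower in Tw2pos by -1.56 on the log2 scale (limma adjusted p = 0.00457). The Pax7pos library had the highest Adamts10 level of all 6. Among the 29 members of the CPM table, Pax7pos held Timp1 at 151, Mmp2 at 128 and Timp2 at 93.9 CPM per kb of exon. Adamts10 at 65.2 and Timp3 at 61.3 CPM per kb followed. Adamts1 and Adamts4, which ranked 4 and 6 per kb in Tw2pos, are outside that table and have no Pax7pos value. Adamts14 had 16.8 and 15.5 CPM in Tw2pos and 31.9 CPM in Pax7pos but did not pass (limma adjusted p = 0.0629). It passed by edgeR (adjusted p = 0.0220), with TMM factors (0.0212) and with quantile normalization (0.0450). Tw2neg is not part of this comparison. Leaving out either Tw2neg library kept the Adamts14 log2 fold change at -0.94 and changed only the spread, and with it the call. Mmp8, Mmp9 and Mmp25 were low in both labelled groups, at no more than 5.07 CPM in Tw2pos and 1.04 CPM in Pax7pos, and did not pass. Without Tw2neg replicate 1 or replicate 2 the Mmp9 log2 fold change likewise stayed at 1.21, and only the spread and the call changed. The neutrophil marker sum was likewise low, 46.2 and 30.7 CPM in Tw2pos and 21.0 CPM in Pax7pos.

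**Figure D4:**
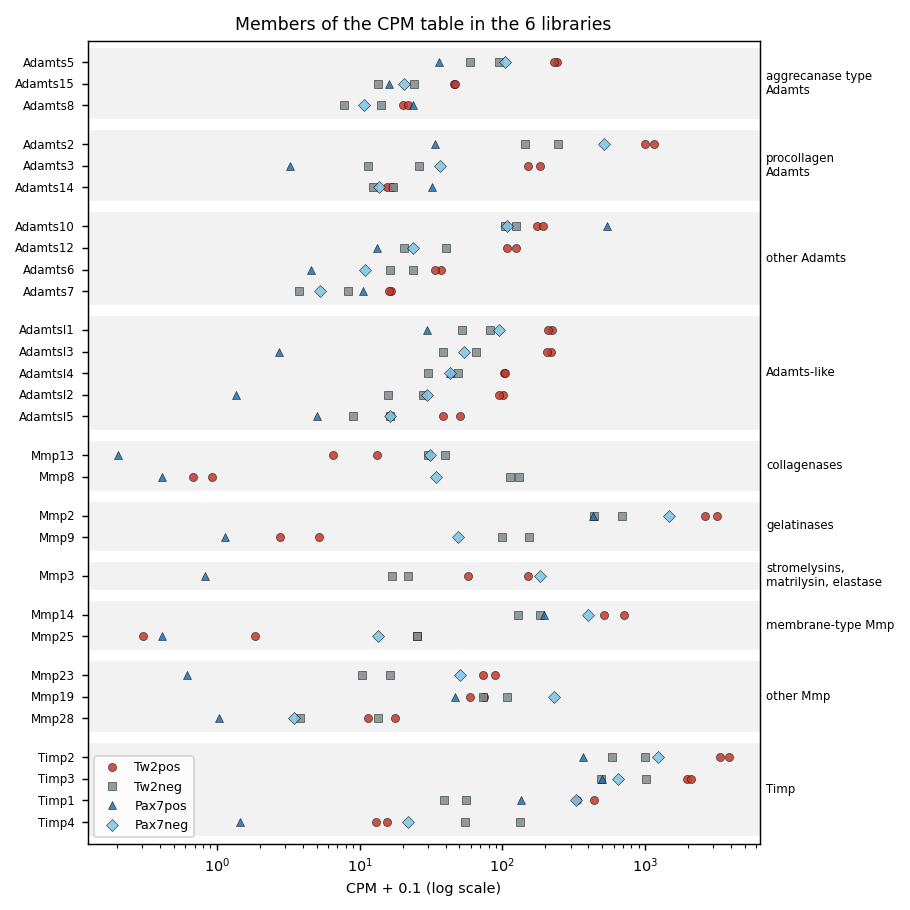
CPM plus 0.1 (log scale) of the 29 members of the CPM table in each of the 6 libraries, grouped by role: Tw2pos (circles), Tw2neg (squares), Pax7pos (triangles) and Pax7neg (diamonds). Pax7pos lies at the left for most proteases and at the right for Adamts10, at 538 CPM.

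Within the Pax7 line each group has 1 library, so labelled and unlabelled cells were compared by size without a test. By a difference of at least 2 in log2(CPM + 10), 1 of 29 members was higher in Pax7pos and 8 were lower, beside 3.83% and 14.6% of the 4939 genes. The median difference was -1.32 over the members and -0.43 over all genes. Adamts10 was the member that was higher, with 538 CPM in Pax7pos, against 108 CPM in Pax7neg (2.21). On this scale Mmp3 showed the largest difference, with 0.731 CPM in Pax7pos, against 183 CPM in Pax7neg (-4.17). Adamts2 followed with 33.8 CPM in Pax7pos, against 517 CPM in Pax7neg (-3.59). The others below -2 were Mmp8, Mmp9, Mmp13, Mmp19, Mmp23 and Adamtsl3. With a pseudocount of 1, Mmp3 was again first at -6.73, while Adamts2 was at -3.89. Mmp23, Mmp13, Mmp8, Mmp9 and Adamtsl3 then lay between them, from -5.08 to -3.93, each on 25 or fewer reads in Pax7pos. None of the 4 Timp genes passed the size. Timp4 had 1.36 CPM, or 13 reads, in Pax7pos, against 21.8 CPM in Pax7neg. Its difference was -1.48 on this scale and -3.27 with a pseudocount of 1. Timp2 had 366 CPM in Pax7pos, against 1219 CPM in Pax7neg, and Timp1 had 134 CPM in Pax7pos, against 329 CPM in Pax7neg. In Pax7pos the fibroblast marker sum was 6201 CPM, against 61379 CPM in Pax7neg, and the neutrophil sum was 21.0 CPM, against 2632 CPM in Pax7neg. The part of these cells in the differences was not tested.

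The unlabelled cells of the 2 lines differed in fewer tested members. In Tw2neg no member was higher than in Pax7neg and 1 was lower, beside 0.146% and 0.0835% of the 4790 genes (limma adjusted p under 0.05). At an unadjusted p under 0.05, 3 members were higher and 7 lower, and the share over all genes was not counted. With edgeR 0 members were higher and 2 lower, beside 15 and 15 of the 4790 genes. Timp1, the member that was lower, had 55.9 and 38.8 CPM in Tw2neg, against 329 CPM in Pax7neg (log2 fold change -2.79, limma adjusted p = 0.0483). The adjusted p was 0.0689 with quantile normalization, 0.0951 with a pseudocount of 10 and 0.050, just above the threshold, without a filter. Mmp3 had 16.7 and 21.9 CPM in Tw2neg and 183 CPM in Pax7neg but did not pass (limma adjusted p = 0.0738). It passed by edgeR (adjusted p = 0.0412) and with TMM factors (0.0243). Tw2pos is not part of this comparison, and without either Tw2pos library the Mmp3 value stayed at -3.19 while only the spread changed. Without Tw2neg replicate 1 or replicate 2 it was -3.01 or -3.38. Leaving out 1 Tw2neg library raised the number of calls among the members and also over all genes, in fits where the spread comes from Tw2pos alone. The fibroblast marker sum was 29367 and 19209 CPM in Tw2neg, against 61379 CPM in Pax7neg.

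The label difference itself was compared between the lines, as Tw2pos minus Tw2neg less Pax7pos minus Pax7neg. It was higher in the Twist2 line for 17 of 27 members and lower for 1, beside 23.4% and 12.8% of the 4790 genes (limma adjusted p under 0.05). The median was 3.00 over the members and 0.37 over all genes. TMM factors moved the median of all genes to -0.01, with 967 genes higher and 1076 lower in place of 1121 and 615, and with 16 members higher and 1 lower. Mmp3 had the largest value: 57.1 and 152 CPM in Tw2pos and 16.7 and 21.9 CPM in Tw2neg, with 0.731 CPM in Pax7pos, against 183 CPM in Pax7neg. Its labelled cells were thus above the unlabelled ones in the Twist2 line and below them in the Pax7 line, a difference between the lines of 8.96 on the log2 scale (limma adjusted p = 1.91e-04). Adamts10 was the member with the lower value, -1.63 (limma adjusted p = 0.0251), and its adjusted p was 0.151 without Tw2pos replicate 1 and 0.111 without Tw2pos replicate 2. Its labelled cells were above the unlabelled ones in both lines, and further above them in the Pax7 line. Mmp8, Mmp9, Mmp25 and Timp4 were below their unlabelled cells in both lines and did not pass (limma adjusted p between 0.0917 and 0.894). Mmp8 passed with a pseudocount of 10 (-1.52, adjusted p = 0.0164), with quantile normalization (-2.30, adjusted p = 0.0351) and without Tw2neg replicate 2 (-1.53, adjusted p = 0.0394), and Timp4 without Tw2neg replicate 1 (1.38, adjusted p = 0.0141). Timp3, Adamtsl4 and Adamts15 did not pass either, but did without either Tw2neg library (adjusted p between 9.01e-04 and 0.0224) and with the replicate block (0.0295, 0.0334 and 0.0236). Adamts14 passed without Tw2neg replicate 2 (-1.27, adjusted p = 0.0125). Mmp13 and Mmp19 passed with the mean of labelled cells below that of unlabelled ones in both lines, and the Mmp13 value rests on 1 read in Pax7pos. Mmp13 had an adjusted p of 0.0815 without Tw2pos replicate 1, and with a pseudocount of 10 its value was 0.84 in place of 3.08 (adjusted p = 0.159). Mmp19 had an adjusted p of 0.0559 without Tw2pos replicate 1 and 0.124 without replicate 2. Adamts6 also lost its call without either Tw2pos library (adjusted p = 0.231 and 0.184), and with quantile normalization its value was 0.17 in place of 1.92 (adjusted p = 0.877). With edgeR the adjusted p was 0.0652 for Mmp19 and 0.0697 for Adamts6, and with quantile normalization 0.110 for Mmp13, 0.0608 for Adamts10, 0.0579 for Adamtsl5 and 0.0957 for Adamts12.

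**Figure D5:**
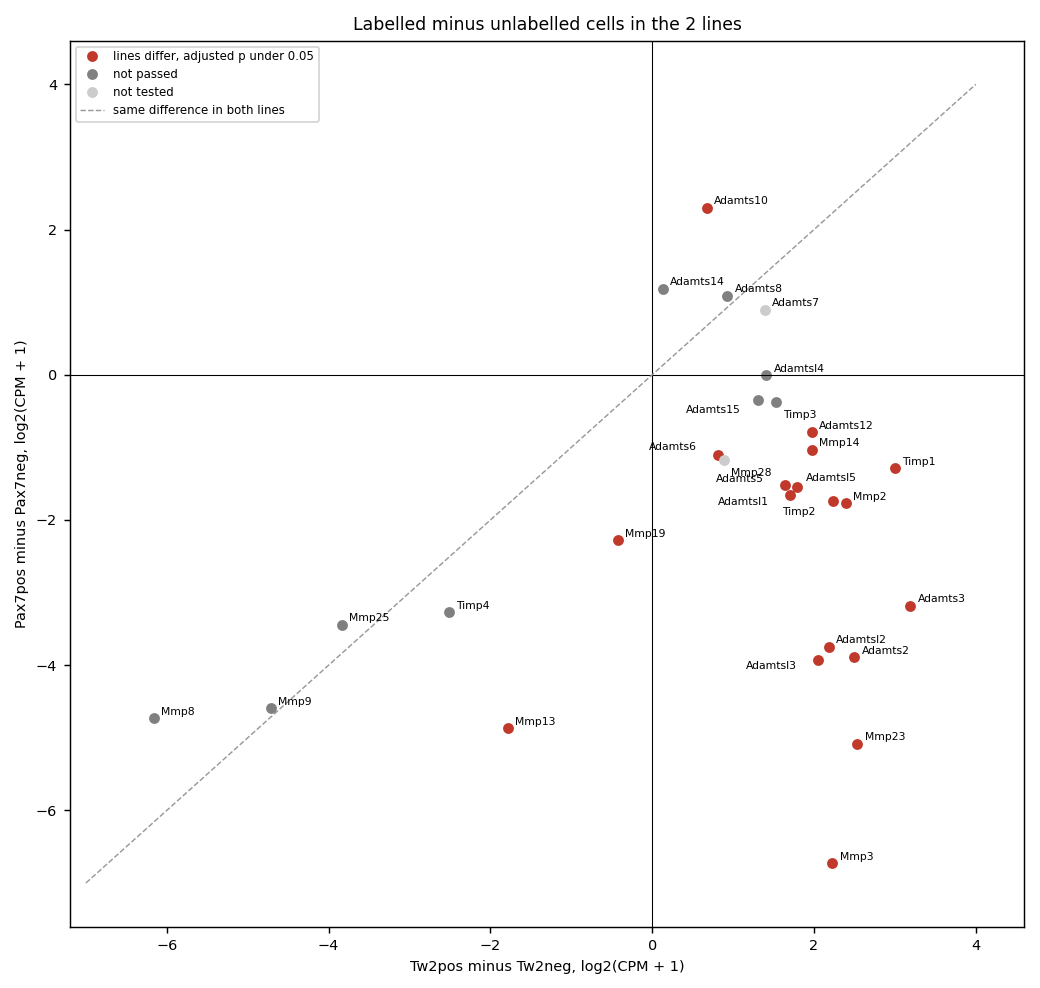
Tw2pos minus Tw2neg (horizontal) against Pax7pos minus Pax7neg (vertical), both as differences of log2(CPM + 1), for the 29 members; red points passed the test of the difference between the lines, dark grey points did not, and light grey points were not tested. Most red points lie at the lower right, positive in the Twist2 line and negative in the Pax7 line, and Adamts10 lies above the dashed line of equal differences.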

How the data were processed

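RNA of sorted tdTomato-positive and tdTomato-negative muscle cells was sequenced in 6 libraries. The deposited signal table, called normalised counts, was made by the authors with DESeq2 1.6.3 after alignment with TopHat2 2.0.0, as far as the tools named in the submitters' processing notes and the file headers show, with GRCm38 as the build. For the read counter and annotation, nothing is stated by the labels, so both are left unnamed. The second deposited table holds CPM, with Twist2 groups as the authors' means, and log2 fold changes that equal log2 ratios of CPM plus 1.

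Whole reads were recovered from the normalised counts: 100% of values were whole within 0.01 of a read. Single-library CPM of the Twist2 groups was rebuilt from them. Its effective library sizes were 9710688 and 10262454 in Tw2pos and 15312683 and 15643678 in Tw2neg. These differ from the read totals, so the CPM values are not a scaling by library totals. All columns with samples were mapped. Tw2pos and Tw2neg were compared on log2(normalised count + 1) for genes with a mean of at least 10, and the other groups on log2(CPM + 1) over 6 libraries with a mean of at least 10 CPM, both with limma 3.58.1 in R 4.3.3 (variance trend, Benjamini-Hochberg adjustment). Each fit had 2 residual degrees of freedom, with 4.00 and 5.75 prior degrees of freedom. Fold changes on these scales understate changes of low genes. Alternatives included edgeR 4.0.16 and DESeq2 1.42.0 on the recovered reads. Levels per kb used merged exon lengths of GENCODE M21. Tables used Python 3.11.15, pandas 2.3.3, numpy 2.4.6, scipy 1.17.1 and matplotlib 3.10.9. The fits were tested on simulated data.

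The members, gene lists and tests were chosen with earlier results of these data known. The rule for named genes took all Timp genes, from each role list the 3 members with the highest mean and the largest passing change in each direction, and allowed any other member. From each other list it took the member with the highest mean and the largest passing change in each direction. Reck, Ctss, Elane, Prtn3, Acan and Vcan fall outside it and were chosen after their values were seen. One gene that the rule names is not reported here. Intervals and the limit for 0 reads cover counting error only. Coordinates are 1-based.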

Additional observations from a re-analysis of the deposited data

Results flagged for a closer look

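The labelled and unlabelled cells differed unequally in the Twist2 and Pax7 lines for 18 of 27 tested members, 17 higher and 1 lower. That difference itself was tested (limma, adjusted p under 0.05 over 4790 genes, 2 libraries a group in the Twist2 line and 1 in the Pax7 line). Over all 4790 genes, 23.4% were higher and 12.8% were lower by the same test. The values are the label difference of the Twist2 line minus that of the Pax7 line on the log2(CPM + 1) scale. Among the proteases of procollagens and proteoglycans they were 6.39 for Adamts2, 6.38 for Adamts3 and 3.16 for Adamts5. Of the other Adamts genes, Adamts12 was at 2.77, Adamts6 at 1.92 and Adamts10 at -1.63. Among the Adamts-like genes they were 5.98 for Adamtsl3, 5.93 for Adamtsl2, 3.35 for Adamtsl1 and 3.33 for Adamtsl5. The Mmp genes were at 8.96 for Mmp3, 7.61 for Mmp23, 4.17 for Mmp2, 3.08 for Mmp13, 3.00 for Mmp14 and 1.86 for Mmp19. The Mmp13 value rests on 1 read in Pax7pos and was 0.84 with a pseudocount of 10 (adjusted p = 0.159). Mmp23, Mmp3, Adamtsl2, Adamtsl3 and Adamts3 also had few reads in Pax7pos, at 5, 7, 12, 25 and 30, so their sizes depend on low counts. For Mmp3 the unlabelled cells differed too, at 16.7 and 21.9 CPM in Tw2neg and 183 CPM in Pax7neg. The Adamts6 value was 0.17 with quantile normalization (adjusted p = 0.877). The inhibitors were at 4.29 for Timp1 and 3.97 for Timp2.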

How the results depend on the processing

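Of the 31 members called between Tw2pos and Tw2neg, 22 were called under all 14 alternatives. The numbers were 15 of 21 under 10 alternatives for Tw2pos against Pax7pos, 0 of 1 under 10 for Tw2neg against Pax7neg and 12 of 18 under 11 for the difference between the lines. Scaling by library totals moved the median of all genes between Tw2pos and Tw2neg to -0.49 and gave 20 higher and 8 lower members, with 1607 of all genes higher and 5257 lower. With 1 Twist2 library left out, higher members between Tw2pos and Tw2neg ranged from 16 to 31, lower members between Tw2pos and Pax7pos from 1 to 2, and lower values of the difference between the lines from 0 to 3. For Tw2neg against Pax7neg the same fits called 2 to 14 members, 0 to 3 higher and 2 to 11 lower. Lower members between Tw2pos and Pax7pos numbered 2 with edgeR, quantile normalization and TMM factors, and higher members 13 among the 16 with a mean of at least 50 CPM, where fewer genes were tested. Between Tw2neg and Pax7neg, edgeR and TMM factors each called 2 members, both lower, and quantile normalization, a pseudocount of 10 and no filter each called 0, of either direction. The difference between the lines had 2 lower members with a pseudocount of 10. In Pax7pos against Pax7neg, 13 members passed the size with a pseudocount of 1, 1 higher and 12 lower. With a pseudocount of 50, 2 members passed it, 0 higher and 2 lower, and 5 were lower with TMM factors. Of all genes, 11 were called between Tw2neg and Pax7neg, against 30 with edgeR, 61 with TMM factors, 1 with quantile normalization or a pseudocount of 10, 3 with no filter, 18 among genes averaging 50 CPM or more, and 47 to 999 with 1 library left out. Quantile normalization called 1847 of all genes between Tw2pos and Pax7pos in place of 2853, and 958 in the difference between the lines in place of 1736. Leaving out 1 library gave 2586 to 7430 genes between Tw2pos and Tw2neg in place of 5470, 1615 to 3705 between Tw2pos and Pax7pos and 933 to 3065 for the difference between the lines. In these fits a group of 1 library is assumed to vary like the others. Among all genes, 1640 passed the size in Pax7pos against Pax7neg with a pseudocount of 1 and 238 with 50, in place of 908. The causes were not tested.

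Each value that changed sign belongs to a member that had not passed. Between Tw2pos and Tw2neg these were Adamts14 at -0.32 and Adamts9 at -0.0313 with library totals and Adamts18 at 0.29 with quantile normalization. With 1 library left out, Adamts14 ranged from -0.10 to 0.36, Adamts16 from -0.11 to 1.37, Adamts18 from -1.01 to 0.72 and Adamts20 from -1.07 to 0.28. Between Tw2pos and Pax7pos, quantile normalization gave -0.13 for Mmp25, -0.0505 for Mmp9 and -0.18 for Mmp8, and Mmp25 ranged from -0.12 to 1.07 with 1 library left out. Between Tw2neg and Pax7neg, Adamtsl3 was at 0.0544 with edgeR and 0.0167 with TMM factors, and Adamts8 at 0.15 with edgeR, 0.23 with quantile normalization, 0.00297 with a pseudocount of 10 and 0.0913 with TMM factors. Leaving out 1 library there gave ranges of -0.0459 to 0.19 for Adamts10, -0.20 to 0.75 for Adamts12, -0.11 to 0.33 for Adamts14, -0.58 to 0.21 for Adamts15, -0.41 to 0.37 for Adamts8, -0.48 to 0.27 for Adamtsl3, -0.51 to 0.18 for Adamtsl4, -0.0615 to 0.33 for Mmp13 and -0.41 to 0.65 for Timp3. For the difference between the lines, edgeR gave 0.28 for Mmp25 and 0.0730 for Mmp9, and Timp4 was at -1.25 with quantile normalization and -0.51 with a pseudocount of 10. Leaving out 1 library gave -0.55 to 0.24 for Adamts8, -0.99 to 0.20 for Mmp25 and -0.48 to 0.24 for Mmp9.

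With the replicate number as a block, 35 members were called between Tw2pos and Tw2neg, 28 higher and 7 lower, and 21 in the difference between the lines, 20 higher and 1 lower. Calls over all genes rose as well. Between Tw2pos and Tw2neg, 3205 of 14155 genes were higher and 3422 lower, in place of 2645 and 2825. In the difference between the lines, 1313 of 4790 were higher and 737 lower, in place of 1121 and 615. The replicate differences of Tw2pos and Tw2neg had a Pearson r of 0.263 across 14155 genes, which are not independent replicates, and no label says that the numbers pair the libraries. Depth limits 8 members with at most 15 reads over the 4 Twist2 libraries, and 11 members of the CPM table rest on 30 or fewer reads in Pax7pos.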
